A study of Mus musculus with 8 samples.

Results

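Gap junction genes were described in the renal cortex of aged and young mice. The 8 genes were taken by symbol from the gene table, 7 connexins (Gjb1, Gjb2, Gjb6, Gja1, Gja4, Gja5 and Gjc1) and 1 pannexin (Panx1), out of 22609 genes. All 8 were present, and 7 passed the filter on low counts, as did 13944 genes in all. Gjb6 did not pass. The set was selected on the age contrast of these same libraries, in that the lower CPM of Gjb2 in aged mice was known when its relatives were listed. The values for age are therefore a description, and no p is given for these 8 genes. RNA was sequenced from the kidney cortex of 4 aged and 4 young untreated male C57BL6 mice, with 1 library per mouse. The labels give an age of 30 months for the aged mice and of about 5 months for the young mice, and no other difference between the groups. The study's methods give a somewhat higher mean age for the aged mice.

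Connexins are membrane proteins that assemble into channels in the membranes of touching cells. The channels of neighbours dock across the gap and let ions and small molecules pass directly between the cytoplasms. Single channels that do not dock, called hemichannels, can release ATP, and pannexins form such channels without making gap junctions. In the kidney, Cx40 (Gja5), Cx37 (Gja4), Cx43 (Gja1) and Cx45 (Gjc1) are known mainly from vessels, glomeruli and renin cells, and Cx32 (Gjb1) and Cx26 (Gjb2) are epithelial connexins that also couple hepatocytes.

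Connexins dock through their extracellular loops, whose cysteines hold the fold. The coding DNA of the first loop, read from the first to the last cysteine codon, is shown for the 7 connexins because docking sets them apart from Panx1, and because it shows how near Gjb2 stands to the others. The 36 bases are written 5′ to 3′ on the coding strand, and capitals mark the cysteine codons.
Gjb2, chr14:57719395-57719430, minus strand: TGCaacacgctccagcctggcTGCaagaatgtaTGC
Gjb6, chr14:57743448-57743483, minus strand: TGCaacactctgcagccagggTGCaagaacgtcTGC
Gjb1, chrX:98579663-98579698, plus strand: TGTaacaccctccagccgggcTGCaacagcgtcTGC
Gja1, chr10:56107512-56107547, plus strand: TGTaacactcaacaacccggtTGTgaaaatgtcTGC
Gja4, chr4:126990018-126990053, minus strand: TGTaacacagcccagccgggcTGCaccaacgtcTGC
Gja5, chr3:96854711-96854746, plus strand: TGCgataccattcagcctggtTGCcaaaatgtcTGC
Gjc1, chr11:102662298-102662333, minus strand: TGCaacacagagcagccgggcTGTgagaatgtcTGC
The coordinates are those of NCBIM37, which is mm9, the build of the counts, and the sequences were read from the GENCODE transcripts of that build. Each stretch lies in coding sequence. The first loop of Gjb2 shared 30 of its 36 bases with Gjb6, 29 with Gjb1 and 25 with Gja1, the fewest of the 6.

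The second loop holds its cysteines at other distances. It is shown for the 3 beta connexins, Gjb2, Gjb6 and Gjb1, again with the cysteine codons in capitals.
Gjb2, chr14:57719047-57719082, minus strand: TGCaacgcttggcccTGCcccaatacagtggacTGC
Gjb6, chr14:57743100-57743135, minus strand: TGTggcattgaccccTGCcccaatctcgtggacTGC
Gjb1, chrX:98580008-98580043, plus strand: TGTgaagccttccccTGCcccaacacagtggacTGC
In this loop Gjb2 shared 29 of 36 bases with Gjb1 and 25 with Gjb6. Of the connexins not shown for this loop, Gja4 shared 26, Gja1 24, and Gja5 and Gjc1 22 each. The coding sequence of Panx1 had 0 matches to either cysteine spacing. Over the whole coding sequence Gjb2 was 75.6% identical to Gjb6 over 681 aligned nt and 65.9% identical to Gjb1, and its identity to the other connexins ran from 56.5% (Gjc1) to 59.7% (Gja4). None of the 2307 windows of 100 nt in the Gjb2 transcript occurred in a coding transcript of another gene, and the count was also 0 for each of the other 7 genes. Gjb2 lies on the minus strand at chr14:57717437-57723539, with 2 exons and its 681 coding nt in 1 of them. Gjb6 lies 18.6 kb away on the same strand.

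Each library held 14820804 to 19821429 read pairs on genes. Levels are given as CPM, the counts scaled to a common library size with TMM factors, and 3 counts, used as a floor, correspond to 0.147 to 0.204 CPM (counting error only). Genes were tested with edgeR's quasi-likelihood test and called where the fold exceeded 1.5 and the p, adjusted after Benjamini and Hochberg over all genes tested, was below 0.05. Aged mouse 1 stood apart from the other aged libraries. Its summed level of 7 proximal tubule S1 and S2 markers was 11206 CPM, where the other aged mice had 21373 to 24191 CPM and the young mice 21046 to 25510 CPM, and its 5 urothelium markers summed to 64.8 CPM, where the other 7 mice had 0.340 to 5.92 CPM. Its 4 adipocyte markers summed to 303 CPM, where the other aged mice had 32.4 to 88.5 CPM and the young mice 24.5 to 46.7 CPM. For several fold changes the value without this mouse is given as well. Cortex was represented in all 8 libraries by the proximal tubule list and by 5 podocyte markers (315 to 611 CPM).

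Gjb2 was the most abundant connexin of the young cortex and stood lower in the aged cortex. It had 2764, 3688, 2629 and 3291 counts in young mice 1 to 4, and 1594, 968, 1270 and 1599 counts in aged mice 1 to 4. In CPM the young mice held 170, 195, 179 and 194, and the aged mice 78.3, 63.0, 67.9 and 87.1. Each aged mouse lay below every young mouse, and the highest aged value, in mouse 4, was not close to the lowest young value, in mouse 1. With age the mean level was 2.49-fold lower, and the log2 fold change was -1.32 (SE, its standard error, 0.11).

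Of the 7 genes tested, Gjb2 was the only one called, in the lower direction, as were 0.889% of all genes tested (2.06% were called in either direction). It was also the only one of the 7 whose groups did not overlap in CPM, as was so for 18.9% of all genes tested (10% with the aged mice below). The set was chosen with this contrast known, and nothing is read from these counts. Without aged mouse 1 the log2 fold change of Gjb2 was -1.34 (SE 0.12). Over 16 other ways of fitting the counts it lay between -1.41 and -1.21. In whole tissue, fewer cells of a type and less RNA per cell cannot be told apart.

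**Figure D1:**
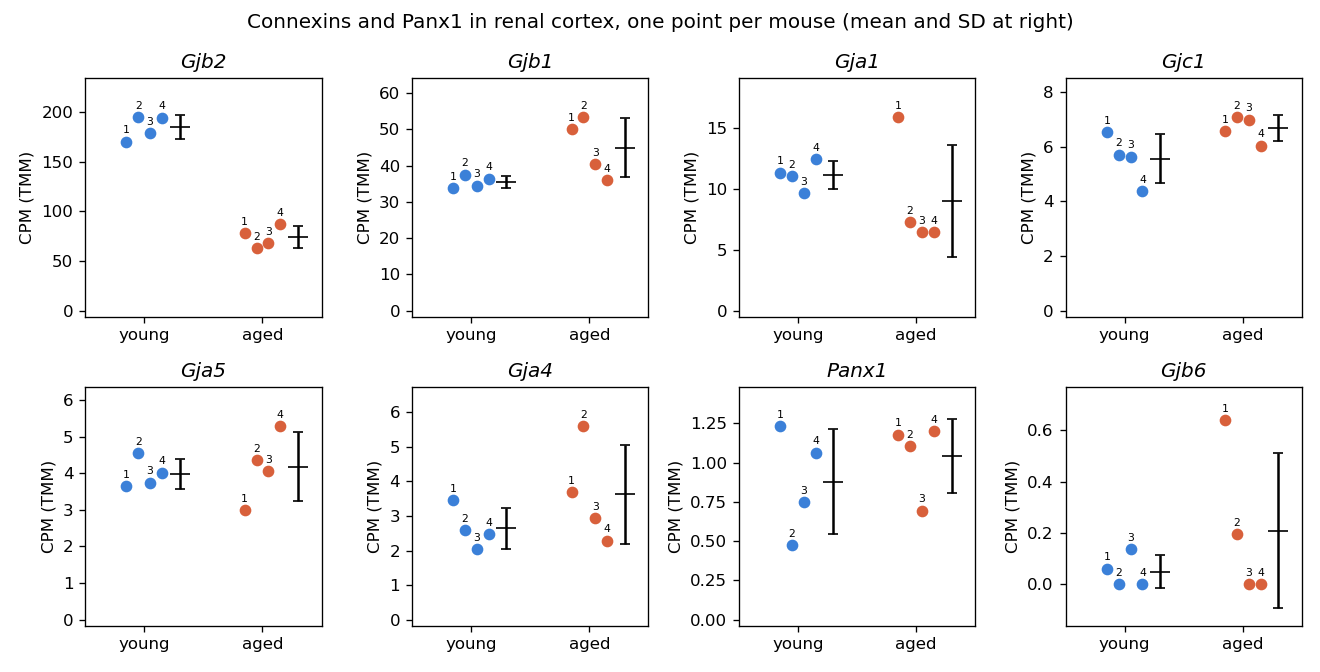
Level of each of the 8 genes in CPM (linear axis, a separate scale for each gene, for Gjb6 extended below 0 to hold the SD bar), 1 point per mouse with the mouse number above it, young mice in blue and aged mice in orange, and the mean ± SD (n = 4) at the right of each group. For Gjb2 the aged mice lie between 63.0 and 87.1 CPM and the young mice between 170 and 195 CPM, while in the other panels the groups overlap.

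Gjb1, on chromosome X at chrX:98571717-98580968, encodes Cx32, which can share channels with Cx26. Its level in CPM was 33.8, 37.6, 34.5 and 36.4 in young mice 1 to 4, and 50.0, 53.4, 40.4 and 36.0 in aged mice 1 to 4. Aged mice 1, 2 and 3 lay above all young mice, and aged mouse 4 lay within the young range. The mean was 44.9 ± 8.13 CPM in aged and 35.5 ± 1.73 CPM in young mice (SD, n = 4), and the spread among the aged mice was the wider. The log2 fold change was 0.34 (SE 0.13), opposite in sign to that of Gjb2, and it did not pass the thresholds.

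Levels of different genes were compared as CPM per kb of the longest annotated transcript. On this scale Gjb2 had 76.7 ± 5.04 and Gjb1 22.4 ± 1.09 CPM per kb in young mice (SD, n = 4). In aged mice the means were 30.8 ± 4.49 for Gjb2 and 28.4 ± 5.13 for Gjb1. The ratio of Gjb2 to Gjb1 was 3.32, 3.42, 3.42 and 3.52 in young mice 1 to 4, and 1.03, 0.777, 1.11 and 1.60 in aged mice 1 to 4. The ratio varied little among the young mice and more among the aged mice, in which Gjb2 was below Gjb1 in mouse 2 and above it in the other 3 mice. This ratio restates the difference in Gjb2 together with that in Gjb1 and was not tested.

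The 7 connexins together summed to 108 ± 5.93 CPM per kb in young and 68.3 ± 5.77 CPM per kb in aged mice (SD, n = 4). Gjb2 made up 69.6% to 72.0% of this sum in the young mice and 37.5% to 54.5% in the aged mice. Gjb1 made up 20.5% to 21.0% in the young and 34.2% to 48.2% in the aged mice. Since the shares add up to the whole, a lower share of Gjb2 raises the shares of the others. The remaining connexins stayed small in every mouse, and the largest of these shares was 6.80%, for Gja1 in aged mouse 1.

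**Figure D2:**
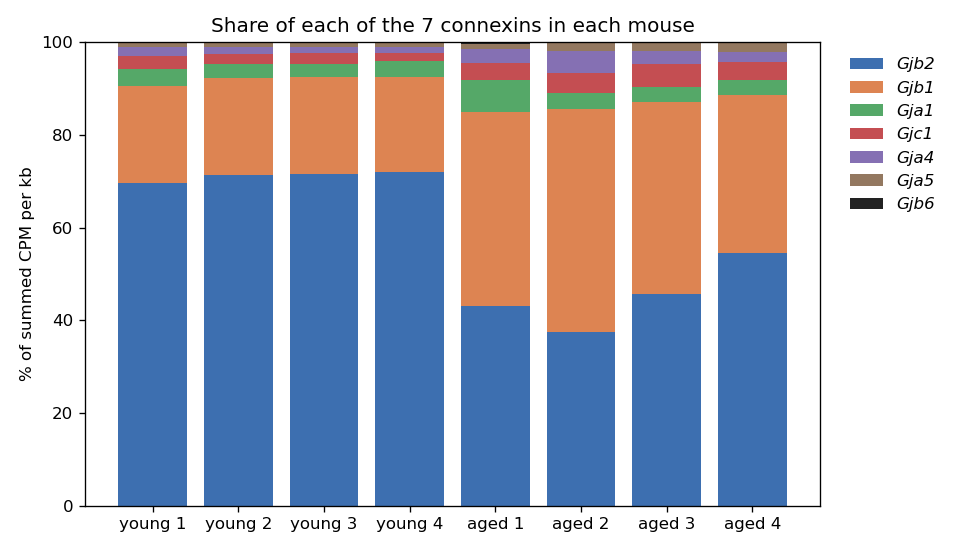
Share of each of the 7 connexins in their summed CPM per kb (percent, 0 to 100), 1 stacked bar per mouse. Gjb2 takes 69.6% to 72.0% of each young bar and 37.5% to 54.5% of each aged bar, and Gjb1 takes most of the rest in all 8 mice.

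Gja1, at chr10:56097106-56110225, encodes Cx43, the most widely expressed connexin of the body. Its level in CPM was 11.3, 11.1, 9.66 and 12.5 in young mice 1 to 4, and 15.9, 7.29, 6.47 and 6.43 in aged mice 1 to 4. Aged mouse 1 was the highest of the 8 mice, and the other 3 aged mice were the 3 lowest. With all mice the log2 fold change was -0.30 (SE 0.29), which did not pass the thresholds. Without aged mouse 1 it was -0.73 (SE 0.13), from 6.73 ± 0.484 CPM in 3 aged mice and 11.1 ± 1.15 CPM in 4 young mice (SD), and Gja1 was then called and its groups did not overlap. In that comparison 3.17% of all genes tested were called in either direction and 1.56% as lower, and 12.5% lay below the young mice without overlap. The count of genes called among the 7 thus went from 1 to 2 on the omission of 1 mouse.

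The smooth muscle, pericyte and renin cell markers, 7 genes of which Ren1 was listed at 0 in all libraries, summed to 191 CPM in aged mouse 1, to 120 to 218 CPM in the other aged mice and to 188 to 219 CPM in the young mice. The 5 fibroblast markers summed to 289 CPM in aged mouse 1 and to 187 to 290 CPM in the other aged mice. Aged mouse 1 was within the range of the other aged mice in both sums, and stood out in the urothelium and adipocyte sums. Single markers of both lists stood apart in that mouse, in both directions. It had 108 CPM of Dcn, 42.4 CPM of Myh11 and 1.92 CPM of Cnn1. The other aged mice had at most 51.4, 27.6 and 0.976 CPM of these. It was the lowest aged mouse for Col1a1, Col1a2 and Col3a1, with 6.53 CPM of Col1a1 where the others had at least 16.2 CPM. The part of these cell types in the value of Gja1 was not tested.

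The connexins known mainly from vessels had low levels, with overlap between the groups in each. Gja4, which encodes Cx37, had 3.45, 2.59, 2.04 and 2.48 CPM in young mice 1 to 4 and 3.68, 5.59, 2.94 and 2.29 CPM in aged mice 1 to 4. Its highest value was in aged mouse 2, and its log2 fold change was 0.45 (SE 0.30), which was 0.17 (SE 0.26) without that mouse. Gja5, which encodes Cx40, the connexin of arterial endothelium and renin cells, had 3.64, 4.55, 3.74 and 4.02 CPM in the young mice and 3.00, 4.36, 4.06 and 5.28 CPM in the aged mice. The lowest and the highest of these values were both in aged mice, and the log2 fold change was 0.06 (SE 0.20). Its sign depended on 1 mouse, with -0.07 without aged mouse 4, and it was 0.19 without aged mouse 1.

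Gjc1, which encodes Cx45, had 106, 108, 83 and 74 counts in young mice 1 to 4 and 134, 109, 131 and 111 counts in aged mice 1 to 4, which gave 5.57 ± 0.893 CPM in young and 6.68 ± 0.477 CPM in aged mice (SD, n = 4). In CPM, aged mice 1, 2 and 3 exceeded all young mice, and the log2 fold change was 0.26 (SE 0.15), or 0.16 without young mouse 4. None of these 3 genes passed the thresholds in the comparison of all 8 mice. The 7 markers of endothelium summed to 420 to 602 CPM in aged and 504 to 542 CPM in young mice, and 0 of them were called. The 5 markers of arterial endothelium summed to 55.6 to 78.7 CPM in aged and 54.1 to 57.9 CPM in young mice. Sox17, a transcription factor of arterial endothelium, was called higher among these 5, as were 1.17% of all genes tested, with a log2 fold change of 0.87 (SE 0.19) and an edgeR adjusted p of 0.0495, and limma-voom called 0 of the 5. By edgeR 3 of the 5 were higher and 1 lower at an unadjusted p below 0.05, which 25.5% of all genes tested had. The lower one was Dll4, with a log2 fold change of -0.38 (SE 0.13) and every aged mouse below every young mouse. The call of Sox17 was lost in 10 of 16 other fits. Among these were limma-voom, the replicate number as a block, and the fits without aged mouse 2 or 3 or any 1 young mouse, up to an edgeR adjusted p of 0.146.

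Panx1 was near the lower limit of what could be tested. It had 20, 9, 11 and 18 counts in young mice 1 to 4 and 24, 17, 13 and 22 counts in aged mice 1 to 4, which gave 0.880 ± 0.336 CPM in young and 1.04 ± 0.236 CPM in aged mice (SD, n = 4). The groups overlapped, and the log2 fold change was 0.25 (SE 0.34). Leaving out young mouse 2 gave 0.04 and leaving out young mouse 1 gave 0.45.

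Gjb6, the nearest of these connexins to Gjb2 over the whole coding sequence and on the chromosome, encodes Cx30. It had 1, 0, 2 and 0 counts in young mice 1 to 4 and 13, 3, 0 and 0 counts in aged mice 1 to 4. Aged mouse 1 alone exceeded the floor of 3 counts, and no fold change is given. In each of the 8 mice Gjb2 had at least 968 counts, so the 2 neighbouring genes stood at very different levels.

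**Figure D3:**
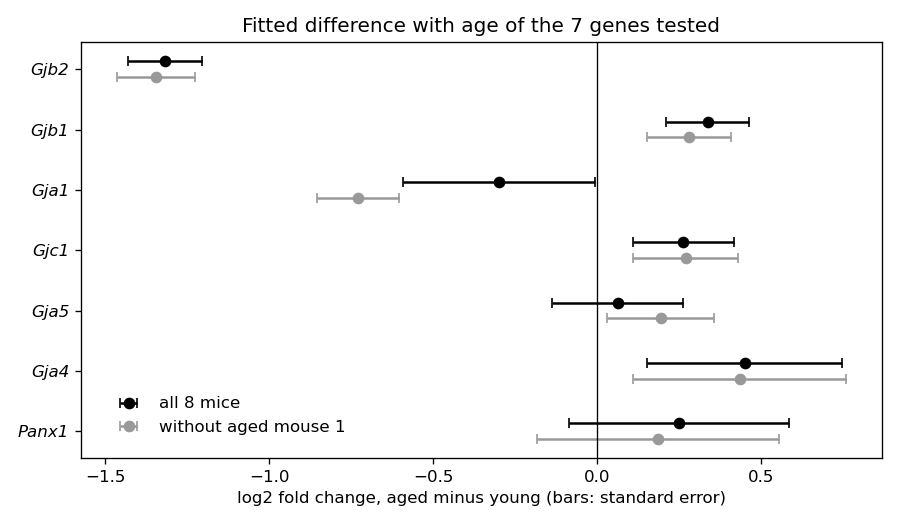
Log2 fold change, aged minus young, for the 7 genes tested (points, with the standard error as bars), from all 8 mice in black and without aged mouse 1 in grey. Gjb2 lies at -1.32 and -1.34, Gja1 moves from -0.30 to -0.73, and the other 5 genes lie above 0 in both fits.

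The median log2 fold change of the 7 genes was 0.25, with 5 positive and 2 negative values, beside a median of 0.03 over all genes tested. Gja1 was the only other of the 7 with a negative value.

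In the young mice the order of levels per kb was Gjb2, Gjb1, Gja1, Gjc1, Gja4, Gja5, Panx1 and Gjb6, with each gene above the next in all 4 mice. The ranges of Gjc1 and Gja4 overlapped, as did those of Gja4 and Gja5, so that these neighbours were not separated beyond their spread, and the other neighbours were. The order of Gja4 and Gja5 also rests on the transcript length used. In CPM without length the young mean of Gja5 (3.99) was above that of Gja4 (2.64). The mean of Gjb1 was 6.26 times that of Gja1, and that of Gja5 was 3.33 times that of Panx1. In the aged mice the ranges of Gjb2 and Gjb1 overlapped, with a ratio of means of 1.09. Gja1 was above Gjc1 in 1 of the 4 aged mice, mouse 1, and the ratio of their means was 1.01. In aged mice 2 to 4, Gja1 lay at 2.07 to 2.35 and Gjc1 at 2.61 to 3.06 CPM per kb. The step from Gjb1 to Gja1 was without overlap in both age groups and reached 9.76 times in aged mice. The step from Gja5 to Panx1 was also without overlap in both groups, and the other neighbours overlapped in the aged mice. Among 13410 genes with a length, averaged over all mice, Gjb2 stood at percentile 91.3 of the level per kb and Gjb1 at percentile 79.3. Gja1 stood at 26.3, Gjc1 at 23.0, Gja4 at 18.4, Gja5 at 12.8 and Panx1 at 3.72.

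**Figure D4:**
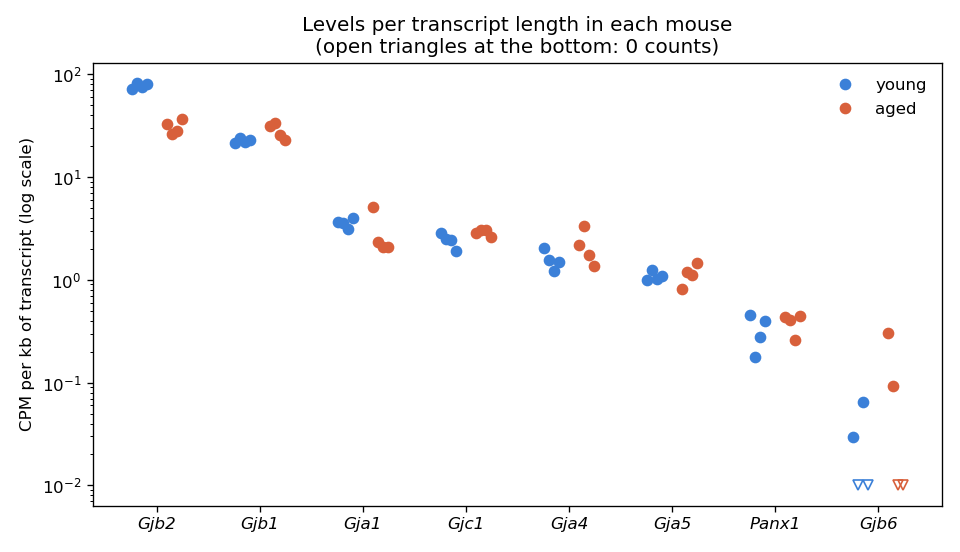
Level of the 8 genes in CPM per kb of transcript (log axis), 1 point per mouse, young in blue and aged in orange, with values of 0 drawn as open triangles at the bottom. Gjb2 and Gjb1 lie apart from the rest in both groups, and the aged points of Gjb2 (26.2 to 36.2) overlap those of Gjb1 (22.7 to 33.7).

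Other genes of the family were at or near the floor. Of 11 further connexin and pannexin genes examined, 0 passed the filter, and Gja10, Gjd2, Gje1 and Panx3 were listed at 0 in all 8 libraries. Gjb5, a connexin known from stratified epithelia such as skin, had 18 counts in aged mouse 1 and 0 to 3 in the others.

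Aged mouse 1 thus had the highest CPM of the 8 mice in Gjb5, Gjb6 and Gja1, and in Panx2 from 3 counts. It was also the highest in the summed urothelium and adipocyte markers. Upk1a, which encodes a uroplakin, had 23.6 CPM in that mouse and at most 2.47 CPM in the other 7. The part of urothelial or fat tissue in these values was not tested. Gja3, which lies 40.6 kb from Gjb2, had 0, 4, 8 and 1 counts in aged mice 1 to 4 and 6, 8, 5 and 9 counts in young mice 1 to 4. Gja6 had 3 to 15 counts per mouse. Gjc3, Gjd3, Gjd4 and Panx2 had 4 counts or fewer in every mouse.

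**Figure D5:**
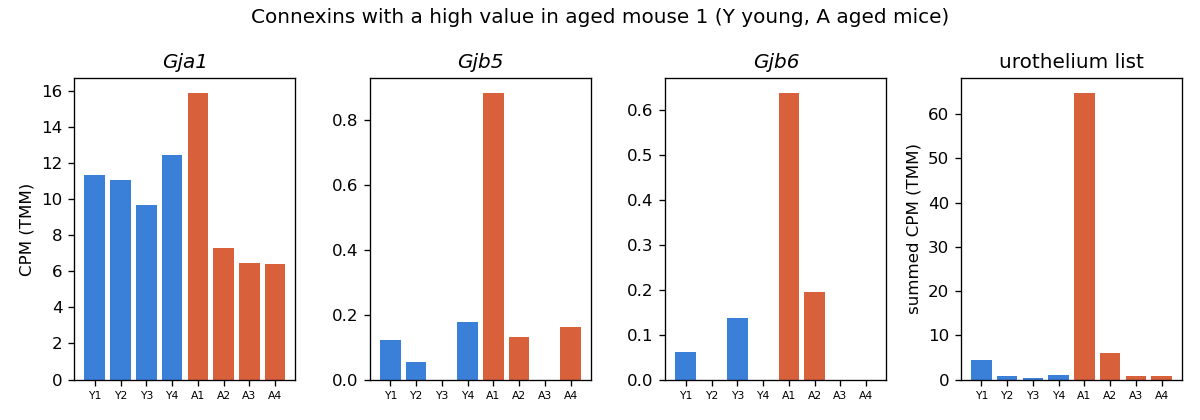
Level in CPM (bars from 0, a separate scale for each gene) of Gja1, Gjb5 and Gjb6 and the summed CPM of 5 urothelium markers, 1 bar per mouse, young mice Y1 to Y4 in blue and aged mice A1 to A4 in orange. Aged mouse 1 has the highest bar in each panel, for example 15.9 CPM of Gja1 and 64.8 CPM of the urothelium markers.

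Markers of the straight part of the proximal tubule, S3, stood lower in sum in the aged mice, as Gjb2 did. The sum of the adherens junction and desmosome genes described below did so too. The 5 markers (Slc7a13, Slc22a7, Slc6a18, Atp11a and Slc5a1) summed to 1091, 1689, 1155 and 3463 CPM in aged mice 1 to 4 and to 3965 to 5496 CPM in young mice. Every aged mouse lay below every young mouse in this sum, and aged mouse 4 was nearest to them, as it was for Gjb2. The order of the other aged mice differed, since mouse 1 was lowest in this sum and mouse 2 was lowest in Gjb2 (63.0 CPM). Atp11a alone had a mean of 2839 CPM in young and 757 CPM in aged mice, and Slc7a13 and Slc6a18 overlapped between the groups. The list is named because it moves with Gjb2. The median log2 fold change of the 5 markers was -0.97 and all 5 were negative. By edgeR 0 of the 5 were called and 5 had an unadjusted p below 0.05, as did 25.5% of all genes tested. By DESeq2 3 were called and by limma-voom 1, where over all 13944 genes these tools called 873 and 273. The S1 and S2 list, without aged mouse 1, lay at 21373 to 24191 CPM in aged mice, within the range of the young mice (21046 to 25510 CPM). Of its 7 genes edgeR called 0, 2 had an unadjusted p below 0.05 (1 higher and 1 lower), DESeq2 called 2 and limma-voom 0. Slc22a6, an organic anion transporter, had 747 ± 337 CPM in aged and 1396 ± 106 CPM in young mice without overlap, and Slc5a12, a lactate transporter, 807 ± 283 and 479 ± 92.0 CPM (SD, n = 4). Whether the level of Gjb2 follows the S3 segment was not tested.

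The genes whose profile was most like that of Gjb2 were found by the root mean square difference in log2 CPM over the 8 libraries, after each gene's own mean was subtracted. They were Gabbr2 (0.185), Kcnh5 (0.212), Kcnk5 (0.219), Slco3a1 (0.220) and Ifrd2 (0.240). These genes were picked for their likeness, so that their own differences are a description. Kcnk5, a potassium channel of the proximal tubule, had 261 ± 64.1 CPM in young and 112 ± 32.5 CPM in aged mice (SD, n = 4). Slco3a1, an organic anion transporter, had 371 ± 20.2 CPM in young and 181 ± 59.2 CPM in aged mice. Ifrd2 had 80.7 ± 7.59 and 43.2 ± 7.20 CPM. In these 3 genes, as in Gjb2, aged mouse 4 held the highest aged value. Gabbr2, a subunit of the GABA-B receptor, rested on 5 to 19 counts per mouse, and Kcnh5, a voltage-gated potassium channel, on 13 to 51.

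The 6 genes tested that lie nearest to Gjb2 on chromosome 14 had smaller differences. Toward lower coordinates were Zmym2, Zmym5 and Pspc1, with log2 fold changes of 0.12, 0.35 and 0.25, and toward higher coordinates Cryl1, Ift88 and N6amt2, with -0.24, 0.00 and -0.30. Without aged mouse 1 those of Pspc1 and Zmym5 were 0.10 and 0.23. By edgeR 0 of the 6 were called and 3 had an unadjusted p below 0.05, as did 25.5% of all genes tested, and DESeq2 and limma-voom also called 0. The nearest of them, Zmym2, was 138 kb from Gjb2, and had 115 ± 6.64 CPM in aged and 106 ± 8.24 CPM in young mice (SD, n = 4).

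Genes whose products bind or modify connexins were taken as a list of 15 symbols that holds scaffolds, kinases and a ubiquitin ligase. Of the 14 that could be tested, 0 were called by edgeR, DESeq2 or limma-voom, and 6 had an unadjusted p below 0.05 (3 higher and 3 lower in aged mice), where 25.5% of all genes did. By the adjusted p alone 2 of the 14 passed, Src and Mapk3, as did 2.95% of all genes tested. The median log2 fold change was -0.11. In 7 of the 14 the groups did not overlap in CPM, in both directions, where 18.9% of all genes tested did not. Src, the tyrosine kinase that phosphorylates Cx43, had 43.6, 38.4, 38.4 and 44.1 CPM in aged mice 1 to 4 and 58.8, 52.0, 58.3 and 56.9 CPM in young mice 1 to 4. All aged mice lay below all young mice, with a log2 fold change of -0.46 (SE 0.08) and an edgeR adjusted p of 0.0330, below the fold threshold. Mapk3, the kinase ERK1, which also phosphorylates Cx43, had 60.8, 58.5, 63.7 and 59.9 CPM in the aged mice and 47.2, 50.0, 45.4 and 47.4 CPM in the young mice. Its aged mice lay above all young mice, with a log2 fold change of 0.35 (SE 0.07) and an edgeR adjusted p of 0.0375, again below the fold threshold. The adjusted p of each passed 0.05 with the replicate number as a block (0.0615 for Src and 0.0955 for Mapk3 by edgeR) and when aged mouse 2 or 3 or any 1 young mouse was omitted, up to 0.114 for Src and 0.130 for Mapk3.

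Genes of adherens junctions and desmosomes, the junctions that lie beside gap junctions, were taken as a list of 14, all of which were tested. By edgeR 0 were called and 1 had an unadjusted p below 0.05, where 25.5% of all genes tested did. By limma-voom 0 were called. Of all 13944 genes tested DESeq2 called 873, and of this list Dsg2, a desmosomal cadherin. Dsg2 had 29.0 ± 8.78 CPM in aged and 19.0 ± 2.70 CPM in young mice (SD, n = 4) and an adjusted p of 0.111 from edgeR. Its highest value, 41.3 CPM, was in aged mouse 1, and its edgeR log2 fold change went from 0.61 to 0.39 without that mouse. Jup, which encodes plakoglobin, had a log2 fold change of -0.26 (SE 0.12) and an edgeR adjusted p of 0.204. Without aged mouse 1 these were -0.37 (SE 0.08) and 0.0370, below the fold threshold, and over all 16 other fits the adjusted p lay between 0.0370 and 0.495. The median of the list was -0.12 on the log2 scale, with 10 negative and 4 positive values. The list summed to 2696 to 2824 CPM in aged and 3020 to 3106 CPM in young mice, so every aged mouse lay below every young mouse in this sum. Cdh16, the most abundant gene of the list, weighed most in it. Its level was 805 ± 164 CPM in aged mice, with 572 CPM in aged mouse 1, and 988 ± 39.2 CPM in young mice (SD, n = 4). Of the single genes, 3 did not overlap between the groups, where 18.9% of all genes tested did not.

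Receptors and enzymes for ATP and adenosine outside the cell, onto which hemichannels open, were taken as a list of 21, and 17 were tested. By edgeR 0 were called and 5 had an unadjusted p below 0.05 (3 higher and 2 lower), where 25.5% of all genes tested did. Limma-voom called 0. Of all 13944 genes tested DESeq2 called 873, and of this list Nt5e, the enzyme CD73 that forms adenosine from AMP. It had 76.0, 99.5, 124 and 90.4 CPM in aged mice 1 to 4 and 255, 201, 119 and 156 CPM in young mice 1 to 4. The groups overlapped through young mouse 3, with a log2 fold change of -0.91 (SE 0.24) and an edgeR adjusted p of 0.0683. P2rx7, an ATP-gated ion channel linked to Panx1, had 7.07 ± 1.10 CPM in aged and 4.97 ± 0.684 CPM in young mice (SD, n = 4), with an adjusted p of 0.112 from edgeR. The median of the list was 0.14 on the log2 scale.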

How the data were processed

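RNA was extracted from the kidney cortex, and stranded libraries were made after depletion of ribosomal RNA. Per the labels and the study's methods, the authors converted base calls with CASAVA 1.8.2, aligned the reads to mm9 with TopHat2 and counted read pairs per RefSeq gene by strand with HTSeq. Versions of the last 2 are not given in the sources used here. The deposited values are raw counts, 1 table per library, and a joint table was not used. Lines that name no gene held 59.4% to 64.5% of each table and entered neither the library sizes nor the tests. Depth on genes was 14820804 to 19821429.

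Counts were analysed in R 4.3.3 with edgeR 4.0.16 (TMM, filterByExpr with a minimum count of 10, quasi-likelihood test, no covariate, all 8 libraries). The p-values were adjusted by Benjamini-Hochberg over 13944 genes, of which 287 had an adjusted p below 0.05 together with a fold above 1.5 and were called. Profile likeness used log2 CPM with a prior count of 2. The 8 mice were taken as the replicates. The smallest chi-square per gene between any 2 libraries was 9.22, and no pair of libraries was taken as duplicates. The tests were run on simulated data first, with 200 of 13836 genes changed 2-fold. There edgeR recovered 68% of the changed genes and 4.9% of its calls were false. DESeq2 recovered 80.5% with 12.5% false calls, and limma-voom 67% with 3.6%.

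Transcript lengths, positions and loop sequences came from GENCODE M1 on NCBIM37, coding sequences were aligned with MAFFT 7.526, and protein aliases came from the gene table of GRCm38.p6. Alternatives were other scalings, other filters, DESeq2 1.42.0, limma-voom (limma 3.58.1), the replicate number as a block and each mouse left out in turn. The genes named are the 8 genes, further genes of their family (some of which are not reported here), the genes called or else the 2 with the smallest p in each list, the 5 genes most like Gjb2, the 3 neighbours on each side and markers whose list moves with one of the 8. The 8 genes and the lists were chosen with earlier results of these data known.

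Marker lists not given in the report had these summed levels in aged and young mice: thick ascending limb 2102 to 3637 and 2945 to 5098 CPM, distal convoluted tubule 1384 to 1755 and 1118 to 1793 CPM, collecting duct principal cell 299 to 434 and 307 to 363 CPM, intercalated cell 157 to 247 and 203 to 254 CPM, macrophage 61.0 to 118 and 81.7 to 124 CPM, lymphocyte 17.1 to 43.3 and 21.0 to 27.6 CPM, red blood cell 7.09 to 19.9 and 12.2 to 27.2 CPM, and adipocyte 32.4 to 303 and 24.5 to 46.7 CPM. In these 8 lists edgeR called Csf1r of the macrophage list and no other gene. Csf1r was called lower in aged mice (log2 fold change -1.00, SE 0.22), as were 0.889% of all genes tested. Of the 5 macrophage markers 4 had a positive log2 fold change, and Csf1r was the 1 with a negative value. Its call was lost with the block, without aged mouse 2 or 3 and without any 1 young mouse. DESeq2 also called 1 distal convoluted tubule and 1 adipocyte marker, where it called 873 of all 13944 genes tested. The red blood cell sum came from Alas2 alone, since Hba-a1 and Hbb-b1 were listed at 0 in all 8 libraries.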

Additional observations from a re-analysis of the deposited data

Results flagged for a closer look

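Among 98 groups of 4 mice, 7 held a mouse that lay far from the other 3 by Dixon's test, where 4.9 would be expected by chance at about 1 in 20 groups. The value given is the gap to the nearest mouse as a share of the group's range, against the limit for 4 values. Aged mouse 1 was the far mouse in 3 of the 7. It was the highest aged mouse for Gja1 (0.91), for Panx2 (1, from 3 counts against 0) and for the summed urothelium markers (0.92).

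Aged mouse 4 was the highest aged mouse for Slco3a1 (0.956) and for Ifrd2 (0.97), which are among the genes most like Gjb2. Aged mouse 3 was the only aged mouse with counts of Gjc3 (1, from 4 counts) and young mouse 2 the only young mouse with a count of Panx2 (1, from 1 count). These last rest on too few counts to be read.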

How the results depend on the processing

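Gjb2 was called in the comparison of all 8 mice and in each of 16 other fits, with log2 fold changes from -1.41 to -1.21. When any 1 mouse was omitted, the number of the 7 genes called lay between 1 and 2, and the second was Gja1, without aged mouse 1. Over all fits the log2 fold change of Gja1 lay between -0.73 and -0.17.

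The count of all genes called moved far more. It was 287, and 488 with library size only (368 higher and 120 lower, against 163 and 124, where the median over all genes tested shifted by 0.11 on the log2 scale), 873 with DESeq2, and between 8 without young mouse 1 and 733 without aged mouse 4. Leaving out aged mouse 1, 2 or 3 gave 444, 119 or 115 genes, and leaving out young mouse 2, 3 or 4 gave 35, 14 or 12. DESeq2 called 1 gene of the adherens junction and desmosome list and 1 of the ATP and adenosine list, and the adjusted p alone passed 2 connexin partners. The cause of these moves was not tested.

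The labels do not say whether mice with the same number were paired, and this was not tested beyond the values given here. Deviations of mice with the same number correlated at 0.21, 0.04, 0.20 and -0.03, and mice 1, 2 and 3 but not 4 correlated best with their own number. With the replicate number as a block 130 genes were called, and Gjb2 had a log2 fold change of -1.33.

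Ift88, which lay at 0.00, changed sign with DESeq2 size factors (-0.0037), without a filter (-0.0074), with DESeq2 (-0.0041), with limma-voom (-0.0020), with the block (-0.00068), without aged mouse 4 (-0.051) and without young mouse 3 (-0.020) or 4 (-0.016). Its highest value was 0.028 among the fits without 1 mouse and 0.11 over all fits, with library size only. Under coding length or no length, 6 of the 8 genes kept their rank in level, and Gja4 and Gja5 exchanged theirs. Counts of Panx1 and Gjb6 limit what can be seen of them.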
